A study of Mus musculus with 15 samples.

Results

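The 10 genes described here carry out calcium cycling in cardiomyocytes, and they were taken by name from the table of raw gene counts, which held 17447 genes. They are Ryr2, Trdn, Casq2, Asph, Jph2, Cacna1c, Atp2a2, Pln, Slc8a1 and Camk2d. Each of the 10 was in the table and passed the filter on low counts. In a heartbeat, calcium enters through the L-type channel, whose pore is encoded by Cacna1c, and opens the ryanodine receptor (Ryr2) on the sarcoplasmic reticulum, the internal calcium store. The muscle relaxes when the pump SERCA2a (Atp2a2), held back by phospholamban (Pln), returns calcium to the store and the sodium-calcium exchanger (Slc8a1) moves the rest out of the cell. Less of the pump, more phospholamban relative to it and leaky ryanodine receptors are textbook features of the failing heart.

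RNA-seq was done on hearts of 15 male C57BL/6J mice, 3 in each of 5 groups, collected 18 weeks after surgery. WTSHAM mice were wild type and sham-operated, and the other 4 groups had chronic kidney disease (CKD) made by subtotal nephrectomy. In week 2, CKD mice were injected by the tail vein with an empty vector (wild type, WTCKD, and rnls-/-, KOCKD) or with AAV9-cTnT-RNLS (WTCKD + RNLS and KOCKD + RNLS), a virus that expresses renalase from the cardiac troponin T promoter, which is active in cardiomyocytes. The rnls-/- mice carried a TALEN-made mutation of exon 4 of Rnls. No library of a sham-operated knockout mouse was analysed, and a vector injection was not described for the sham mice, so that nephrectomy and vector cannot be told apart in WTCKD against WTSHAM. Age was given as a range for all mice and not by group. The comparisons ask what CKD, the knockout under CKD and renalase in either genotype did to these transcripts.

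The libraries held 10480788 to 13424078 counted reads, and no calcium cycling gene had fewer than 1937 reads in any of them. Counting error was not compared with the differences between mice. Rnls was not analysed here, which leaves the genotype labels unchecked. The KOCKD + RNLS libraries have identifiers of the same series as some wild-type ones, and whether any label is wrong was not tested. Summed CPM (reads per gene as a share of the library's TMM-scaled total) of 13 ventricular cardiomyocyte markers were 107795 to 149505 in every library, while 6 fast skeletal muscle markers summed to between 0.744 and 3.90. Atrial markers (Myl7, Myl4, Sln and Bmp10) varied widely. Their sum ran from 29.4 to 738 CPM in WTSHAM, from 4.08 to 1159 in WTCKD, from 3.99 to 243 in WTCKD + RNLS, from 13.5 to 1712 in KOCKD and from 1.71 to 2.81 in KOCKD + RNLS. The last group was therefore below every other library in atrial signal, and 5 libraries (WTSHAM replicate 3, WTCKD replicates 1 and 2, WTCKD + RNLS replicate 3 and KOCKD replicate 3) exceeded 100 CPM of Myl7.

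In RNA from whole hearts, fewer cells of a type and less RNA per cell cannot be told apart. Endothelial markers summed to 1144 to 1311 CPM in WTCKD and 829 to 874 in WTCKD + RNLS, with 4 of 5 lower at an adjusted p under 0.05. Fibroblast markers summed to 1224 to 1839 CPM in WTCKD and 892 to 1086 in WTCKD + RNLS, with 3 of 8 lower. From KOCKD to KOCKD + RNLS, the fibroblast sum went from 1062 to 1400 CPM to 856 to 994, with 3 of 8 lower, and the endothelial sum from 1017 to 1203 CPM to 951 to 968, with 1 of 5 lower. Ventricular cardiomyocyte markers summed to 111251 to 130741 CPM in WTCKD and 133190 to 149505 in WTCKD + RNLS, and to 115291 to 126907 in KOCKD and 128228 to 130378 in KOCKD + RNLS. The sums of these 3 lists did not overlap between vector and virus groups in either genotype. Of all genes tested, 21.2% separated in either direction between these groups in wild type and 40.6% in knockout hearts. At an adjusted p under 0.05, 2.28% of all genes were lower and 2.19% higher in wild type. In knockout hearts 7.04% were lower and 9.05% higher. Of the 13 ventricular markers, 1 (Ttn) was higher at an adjusted p under 0.05 in wild type, with 11 log2 changes above 0 and 2 below. In knockout hearts 2 (Myh6 and Ttn) were higher, with 4 log2 changes above 0 and 9 below (median -0.09). The higher knockout sum was thus not a rise of most of its markers. Macrophage markers summed to 124 to 154 CPM in WTCKD, above WTCKD + RNLS (84.6 to 120.5 CPM) and KOCKD (85.2 to 113 CPM), and to 81.8 to 117 CPM in KOCKD + RNLS, which overlapped KOCKD. Between KOCKD and WTCKD, 19.3% of all genes separated. Smooth muscle and pericyte markers summed to 854 to 1174 CPM over all libraries, and their groups overlapped between vector and virus in both genotypes. The part of these cell type signals in the changes of calcium genes was not tested.

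Levels between genes were compared per length, in FPKM (reads scaled by gene length and library total) as deposited. Atp2a2 and Pln led with mean levels of 3380 and 3114 FPKM over the 15 hearts. Casq2 (564 FPKM) encodes calsequestrin, which binds calcium inside the store, and Jph2 (163 FPKM) encodes junctophilin, which holds the store against the T-tubule. Ryr2 stood at 113 FPKM, and Trdn (triadin, which ties calsequestrin to the ryanodine receptor) at 65.2 FPKM. The exchanger Slc8a1 (26.4 FPKM), the channel Cacna1c (24.5 FPKM), the kinase Camk2d (19.9 FPKM) and Asph (14.4 FPKM), whose isoforms include junctin of the release complex, were the lowest. The ranges over libraries of Slc8a1 (21.6 to 33.3 FPKM), Cacna1c (18.4 to 32.01 FPKM) and Camk2d (16.8 to 21.9 FPKM) overlapped, and that of Atp2a2 (2862 to 4185 FPKM) overlapped that of Pln (2841 to 3352 FPKM). Over the 15 libraries the coefficient of variation of CPM was between 5.84% (Trdn) and 17.2% (Cacna1c).

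The places of the 4 lowest genes in this order depend on the gene lengths behind FPKM. The length used was 19854 bases for Slc8a1, against 3068 bases of summed exons in GENCODE M1, and 9654 against 16069 bases for Camk2d. For Cacna1c the lengths were 15750 and 8817 bases, and for Asph 20290 and 16113 bases, although the longest coding transcript of Asph there has 6694 bases. For Pln both lengths were 2480 bases. Of 12979 genes with a length from both sources, 5.35% had the same number of bases, and the median ratio of the lengths was 1. Reads of Asph outside its junctin isoform are counted with it.

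On the mm9 genome (NCBIM37), Ryr2 (ENSMUSG00000021313) lies at chr13:11645370-12199212 on the minus strand and Cacna1c (ENSMUSG00000051331) at chr6:118542314-119146249 on the minus strand. Pln (ENSMUSG00000038583) lies at chr10:53057492-53065805 and Trdn (ENSMUSG00000019787) at chr10:32803289-33196515, both on the plus strand. Casq2 (ENSMUSG00000027861) is at chr3:101890338-101950437 and Camk2d (ENSMUSG00000053819) at chr3:126299220-126547972 on the plus strand. Atp2a2 (ENSMUSG00000029467) is at chr5:122903531-122952183, Slc8a1 (ENSMUSG00000054640) at chr17:81785359-82048947, Jph2 (ENSMUSG00000017817) at chr2:163161978-163223729 and Asph (ENSMUSG00000028207) at chr4:9375216-9596491, all on the minus strand. Exons of Asph share 2368 bases with antisense genes (Clvs1 and AL773548.1), those of Pln 24 bases with Gm10942 and those of Slc8a1 8 bases with Gm11096. The strand setting of the counting was not given, so reads on these shared bases are uncertain.

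Promoters are shown for Ryr2 and Cacna1c, the genes that rose with renalase in knockout hearts, and for Pln, the member nearest to a change in wild-type hearts. They run from 250 bases before to 50 after the start of transcription and come from RefSeq on GRCm38.p6, a later build than the gene positions above, with no conversion between the builds. Capitals mark matches to the motifs searched on both strands. Here the TATA box was searched as TATAAA, the CCAAT box by the letters of its name, the motif of GATA factors as GATAA, the clock E-box as CACGTG, the GC box as GGGCGG, the MCAT element as CATTCC and the MEF2 site by its consensus.
Ryr2, chr13:12106896-12107195 (-): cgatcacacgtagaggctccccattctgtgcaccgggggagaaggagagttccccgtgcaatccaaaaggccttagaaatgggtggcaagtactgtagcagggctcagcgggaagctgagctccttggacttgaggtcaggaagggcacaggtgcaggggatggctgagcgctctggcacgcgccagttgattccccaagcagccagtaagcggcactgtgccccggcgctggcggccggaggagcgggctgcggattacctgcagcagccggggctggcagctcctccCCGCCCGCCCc
Cacna1c, chr6:119196360-119196659 (-): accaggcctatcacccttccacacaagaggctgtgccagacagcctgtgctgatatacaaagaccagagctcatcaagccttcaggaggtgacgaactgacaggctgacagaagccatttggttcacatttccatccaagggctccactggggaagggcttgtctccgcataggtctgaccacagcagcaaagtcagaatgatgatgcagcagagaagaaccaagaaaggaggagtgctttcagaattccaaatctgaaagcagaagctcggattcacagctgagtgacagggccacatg
Pln, chr10:53337436-53337735 (+): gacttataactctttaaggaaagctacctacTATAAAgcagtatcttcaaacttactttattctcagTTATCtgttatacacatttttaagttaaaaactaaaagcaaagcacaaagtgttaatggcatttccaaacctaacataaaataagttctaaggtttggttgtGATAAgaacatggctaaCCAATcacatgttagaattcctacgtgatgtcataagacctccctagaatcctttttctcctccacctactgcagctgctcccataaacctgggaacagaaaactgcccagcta

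The Ryr2 window was 65.3% G and C and held 2 overlapping GC boxes downstream of the start. The Cacna1c window, from the outermost of 3 listed starts, was 51.3% G and C and held no match, while the windows of the other starts held a GC box in one and a CCAAT box in the other. The Pln window was 36% G and C and held a TATA box 219 bases upstream of the start, a CCAAT box 64 bases upstream and GATA motifs 183 and 81 bases upstream. Of 32851 mouse promoter windows of this length, 35.7% held a GC box, 13.6% a TATA box, 37.4% a CCAAT box and 25.4% a GATA motif. The shares were 7.15% for the clock E-box, 14.7% for the MCAT element and 0.557% for the MEF2 site. A match is a description of the letters and not a site of binding.

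**Figure D1:**
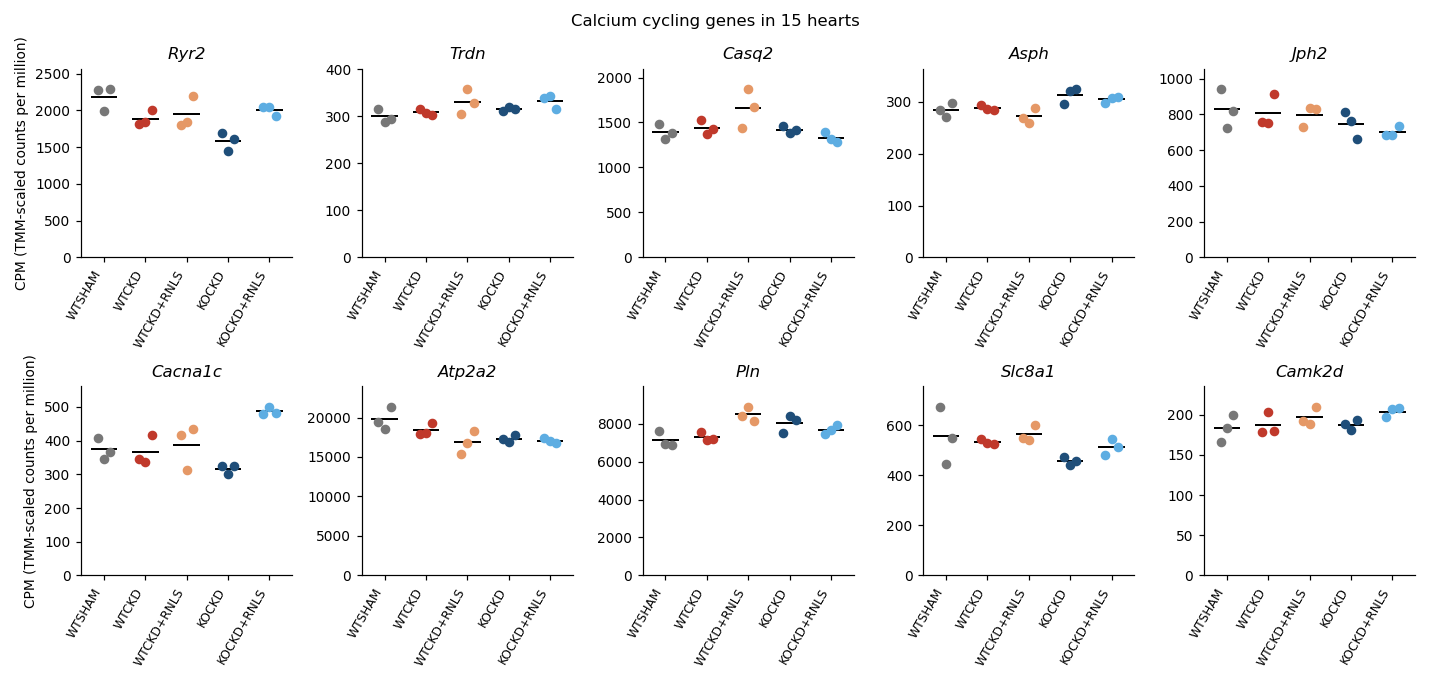
CPM (vertical axes, from 0) of the 10 calcium cycling genes in each of 15 hearts, as points grouped on the horizontal axes, with a bar at each group's mean. Ryr2 sits at 1451 to 1690.3 CPM in KOCKD, under the 12 other hearts, and Cacna1c at 479 to 501 CPM in KOCKD + RNLS, over the 12 other hearts.

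Across the 5 groups, 2 of the 10 genes differed in the edgeR quasi-likelihood test, Cacna1c (adjusted p = 0.0113) and Ryr2 (adjusted p = 0.0155), where 22.2% of all 13021 genes tested did. Adjusted p-values are Benjamini-Hochberg over those genes, and genes were called at an adjusted p under 0.05. By pairs of groups, both rose from KOCKD to KOCKD + RNLS, where 16.1% of all genes were called and 9.05% rose. None of the 10 was called in WTCKD against WTSHAM (2.3% of all genes), in WTCKD + RNLS against WTCKD (4.47%), in KOCKD against WTCKD (0% by edgeR, with 1318 of all genes at an unadjusted p under 0.05 and 8 called by DESeq2) or in the difference of the renalase effect between the genotypes (0%, with 2288 at an unadjusted p under 0.05 and 359 called by DESeq2). At an unadjusted p under 0.05, the counts in these 4 comparisons were 1, 2, 1 and 4 of the 10, where 17.6%, 20.2%, 10.1% and 17.6% of all genes passed, and DESeq2 called 0, 1, 0 and 1. Counting log2 changes over 0.32 in size at an unadjusted p under 0.05, a rule of the kind the study used, gave 0, 0, 0 and 1 of the 10 (11.3%, 14.4%, 5.62% and 15.2% of all genes), and 2 in KOCKD + RNLS against KOCKD (22.3%). The comparisons share libraries, WTCKD and KOCKD each entering more than 1 of them.

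**Figure D2:**
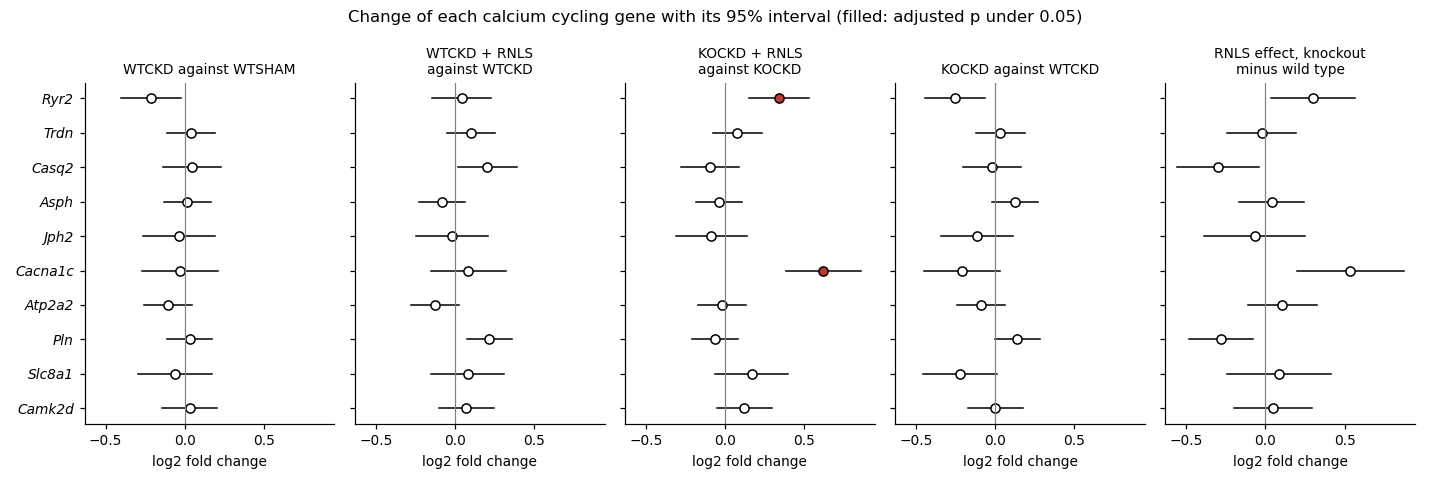
log2 fold change (horizontal axes) of each of the 10 genes in 5 comparisons from edgeR, with bars for 95% intervals. Filled points mark the 2 changes at an adjusted p under 0.05, Ryr2 (0.34) and Cacna1c (0.62) from KOCKD to KOCKD + RNLS.

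The transcript of the entry channel rose in knockout hearts, in a fit that takes no account of gene length. Cacna1c stood at 324, 302 and 324 CPM in KOCKD and at 479, 501 and 481 CPM in KOCKD + RNLS. All 3 knockout hearts with renalase were thus above the other 12 hearts, a separation from all others that 5.05% of all genes showed in this group. The rise was 1.54-fold (95% interval 1.303 to 1.81, log2 change 0.62, SE 0.11, adjusted p = 0.00314 by edgeR). With the trend of each library over gene length removed, as an offset in the fit, it was 0.27 on the log2 scale and was not called (adjusted p = 0.0842), and with the lengths of GENCODE M1 it was 0.37 and called (adjusted p = 0.0245). In WTSHAM the gene read 409, 347 and 366 CPM, in WTCKD 347, 335 and 417 CPM, and in WTCKD + RNLS 416, 314 and 435 CPM. These 3 wild-type groups overlapped. The log2 change in wild-type hearts with renalase was 0.08 (95% interval -0.15 to 0.32, adjusted p = 0.743). Between the genotypes the renalase effect on Cacna1c differed by 0.54 on the log2 scale (95% interval 0.20 to 0.87, unadjusted p = 0.00383 by edgeR), which was not called after adjustment (adjusted p = 0.140 by edgeR and 0.0281 by DESeq2). From WTCKD to KOCKD the log2 change was -0.21 (95% interval -0.45 to 0.03, adjusted p = 0.516), and the 3 KOCKD hearts were below the 3 WTCKD hearts.

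In the release unit, Ryr2 moved with Cacna1c from KOCKD to KOCKD + RNLS. Its levels were 1690.3, 1451 and 1605 CPM in KOCKD and 2046, 2044 and 1923 CPM in KOCKD + RNLS. The 3 KOCKD hearts were below the other 12, and for 3.24% of all genes this group lay apart from the others on either side. The rise with renalase was 1.27-fold (95% interval 1.11 to 1.44, log2 change 0.34, SE 0.09, adjusted p = 0.0182 by edgeR), and with the length trend removed it was not called (-0.020, adjusted p = 0.913). WTSHAM hearts read 2276, 1996 and 2295 CPM, WTCKD hearts 1814, 1841 and 2011 CPM and WTCKD + RNLS hearts 1803, 1839 and 2196 CPM. WTSHAM and WTCKD overlapped by a single pair of hearts. The log2 change of Ryr2 was -0.21 from WTSHAM to WTCKD (95% interval -0.40 to -0.02, adjusted p = 0.222) and -0.26 from WTCKD to KOCKD (95% interval -0.44 to -0.07, adjusted p = 0.447), neither past the threshold. With the length trend removed these 2 changes were -0.06 and -0.11, and with GENCODE M1 lengths 0.02 and -0.07. Without offsets the log2 change of Ryr2 was 0.04 from WTCKD to WTCKD + RNLS (95% interval -0.14 to 0.23), and the difference of the renalase effects was 0.30 (95% interval 0.03 to 0.56, adjusted p = 0.237).

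The knockout result went along with gene length. From KOCKD to KOCKD + RNLS, the median log2 change of all genes ran from -0.31 in the shortest of 10 equal bins by length to 0.33 in the longest bin (9033 bases and more), where 34.4% of genes rose. Ryr2, Cacna1c, Slc8a1, Asph and Camk2d were all in that longest bin. The trend was in every library of both groups, since the median deviation of the longest bin from its mean over the 15 hearts was -0.25 to -0.14 on the log2 scale in KOCKD and 0.12 to 0.16 in KOCKD + RNLS. In WTCKD + RNLS against WTCKD the medians were 0.03 and 0.08 in the shortest and longest bin. In KOCKD against WTCKD they were 0.17 and -0.15, and in WTCKD against WTSHAM 0.07 and -0.13. The WTCKD + RNLS libraries differed among themselves, with longest-bin deviations of 0.095, -0.17 and 0.16 in replicates 1, 2 and 3.

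With the length trend of each library removed as an offset in the fit, the log2 change of Ryr2 in knockout hearts was -0.020 (95% interval -0.19 to 0.15, adjusted p = 0.913) and that of Cacna1c 0.27 (95% interval 0.08 to 0.45, adjusted p = 0.0842). Neither was then called. Asph, at -0.04 without the offsets, was called lower with them (-0.42, adjusted p = 0.00780). With the summed exon lengths of GENCODE M1 in place of the lengths behind FPKM, Ryr2 was at -0.14 (adjusted p = 0.359), Cacna1c at 0.37 (adjusted p = 0.0245), Asph at -0.48 (adjusted p = 0.00569) and Camk2d at -0.32 (adjusted p = 0.0331). Whether the length trend arose in the hearts or in the libraries was not tested. With the level of atrial markers as a covariate, Cacna1c (0.60, adjusted p = 0.0113) and Ryr2 (0.38, adjusted p = 0.0278) were called. Without the 5 libraries over 100 CPM of Myl7, Cacna1c was called (0.65, adjusted p = 0.0192) and Ryr2 was not (0.36, adjusted p = 0.0538). Ryr2 also lost its call without KOCKD replicate 2 (0.29, adjusted p = 0.0840), KOCKD + RNLS replicate 1 (0.33, adjusted p = 0.0597) or KOCKD + RNLS replicate 2 (0.33, adjusted p = 0.0616).

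**Figure D3:**
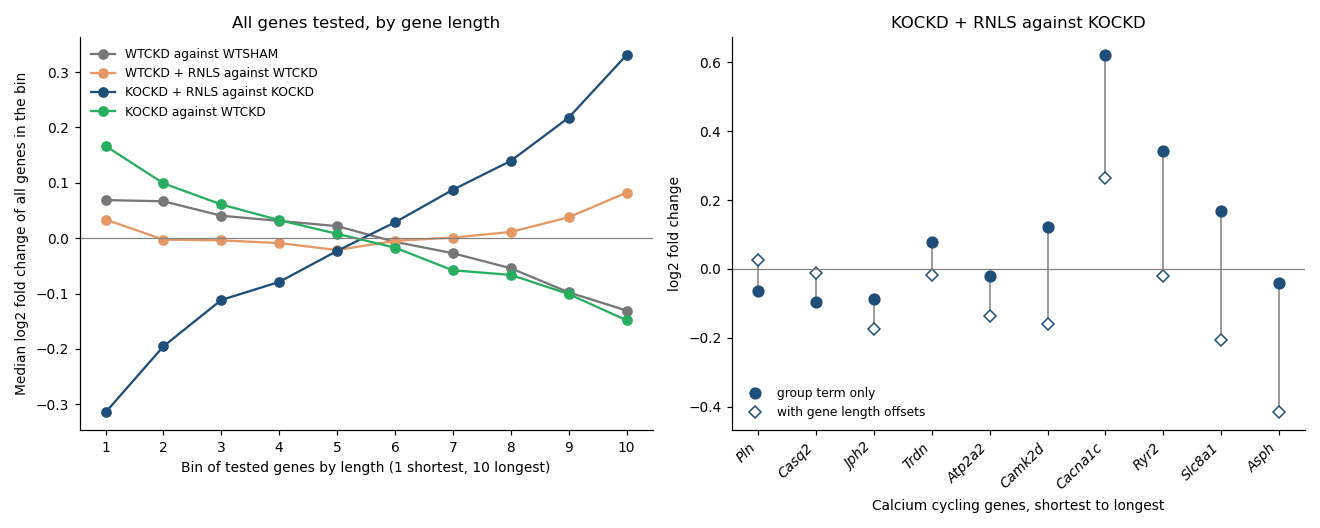
Left, median log2 fold change (vertical axis) of all tested genes in 10 bins by gene length (horizontal axis), 1 line for each of 4 comparisons. Right, log2 fold change of the 10 calcium cycling genes from KOCKD to KOCKD + RNLS, ordered by length, as circles without and diamonds with gene length offsets, where Ryr2 goes from 0.34 to -0.020, Cacna1c from 0.62 to 0.27 and Asph from -0.04 to -0.42.

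The other members of the release unit gave no call in the 4 pairs of groups without length offsets. Casq2 read 1529, 1367 and 1431 CPM in WTCKD and 1440.2, 1874 and 1674 CPM in WTCKD + RNLS, groups that overlapped. Its log2 change there was 0.21 (95% interval 0.02 to 0.39, adjusted p = 0.197), against -0.10 in knockout hearts (95% interval -0.28 to 0.09), and the difference of these effects was -0.30 (95% interval -0.56 to -0.04, adjusted p = 0.225). Trdn was the steadiest member, between 288 and 358 CPM over all 15 hearts, with log2 changes of 0.03 to 0.10 in the 4 pairs of groups. Asph lay between 259 and 325 CPM, and its 3 KOCKD hearts (295, 321 and 325 CPM) were above the 3 WTCKD hearts (294, 286 and 284 CPM), with a log2 change of 0.12 (95% interval -0.02 to 0.27, adjusted p = 0.524). From KOCKD to KOCKD + RNLS, where it was called lower with both kinds of length offsets, its log2 change without them was -0.04 (95% interval -0.19 to 0.11, adjusted p = 0.725).

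Jph2, of the junction, ranged from 663 to 943 CPM, and its groups overlapped in each pair compared. Its log2 changes were between -0.11 and -0.02, with intervals of up to 0.23 on either side. The exchanger Slc8a1 read 472, 439 and 457 CPM in KOCKD, 480, 545 and 511 CPM in KOCKD + RNLS and 545, 527 and 526 CPM in WTCKD. KOCKD was thus below both, with log2 changes of -0.22 against WTCKD (95% interval -0.46 to 0.01, adjusted p = 0.499) and of 0.17 on renalase (95% interval -0.07 to 0.40, adjusted p = 0.317). With length offsets the change on renalase was -0.21, and with GENCODE M1 lengths 0.22, neither of them called. Camk2d, the main cardiac isoform of the calcium and calmodulin-dependent kinase that phosphorylates the ryanodine receptor and phospholamban, read 188, 180 and 194 CPM in KOCKD and 197, 207 and 208 CPM in KOCKD + RNLS (log2 change 0.12, 95% interval -0.05 to 0.30, adjusted p = 0.333). Over the 15 hearts it lay between 166 and 210 CPM.

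Counting groups that did not overlap, 4 of the 10 genes were higher in all 3 KOCKD + RNLS hearts than in all 3 KOCKD hearts (Ryr2, Cacna1c, Slc8a1 and Camk2d), where 40.6% of all genes separated in either direction. In KOCKD against WTCKD, 5 of 10 separated (Ryr2, Cacna1c, Atp2a2 and Slc8a1 lower, Asph higher), where 19.3% of all genes did. These groups were compared without length offsets. With them the log2 changes were -0.11 for Ryr2, -0.07 for Cacna1c, -0.03 for Atp2a2, -0.08 for Slc8a1 and 0.27 for Asph. With GENCODE M1 lengths Slc8a1 was at -0.25 and Asph at 0.30. None of these was called. In WTCKD + RNLS against WTCKD, 1 of 10 separated (Pln), where 21.2% of all genes did. In WTCKD against WTSHAM, 0 of 10 separated, where 22.5% of all genes did.

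The reuptake transcripts showed their largest shift in wild-type hearts. Pln read 7567, 7160 and 7187 CPM in WTCKD and 8420, 8898 and 8146 CPM in WTCKD + RNLS, and the groups did not overlap. Its log2 change was 0.22 (SE 0.07, 95% interval 0.07 to 0.36, 1.16-fold) with an unadjusted p of 0.00542 by edgeR, which did not pass after adjustment (adjusted p = 0.0808 by edgeR and 0.0282 by DESeq2). With gene length offsets Pln was called (0.23, adjusted p = 0.0181). The other Pln levels were 7628, 6945 and 6880 CPM in WTSHAM, 7533, 8415 and 8175 CPM in KOCKD and 7455, 7676 and 7940 CPM in KOCKD + RNLS. In knockout hearts the log2 change with renalase was -0.06 (95% interval -0.21 to 0.08), and the effects in the genotypes differed by -0.28 (95% interval -0.48 to -0.08, adjusted p = 0.169).

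Atp2a2 read 19427, 18603 and 21369 CPM in WTSHAM, 17854, 18092 and 19259 CPM in WTCKD and 15431, 16832 and 18296 CPM in WTCKD + RNLS. It read 17234, 16865 and 17749 CPM in KOCKD and 17350, 17006 and 16785 CPM in KOCKD + RNLS. WTCKD overlapped both WTSHAM and WTCKD + RNLS, while WTCKD + RNLS, KOCKD and KOCKD + RNLS each lay below WTSHAM. These pairs with WTSHAM were not tested, and the share of all genes that separate in them was not counted. The log2 changes were -0.11 for CKD (95% interval -0.26 to 0.05, adjusted p = 0.490) and -0.13 for renalase in wild type (95% interval -0.28 to 0.03, adjusted p = 0.351). In knockout hearts the change with renalase was -0.02 (95% interval -0.17 to 0.13).

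The ratio of Pln to Atp2a2 in FPKM, taken within each heart and so free of library scaling, was 0.838, 0.797 and 0.687 in WTSHAM and 0.905, 0.845 and 0.797 in WTCKD. It was 1.16, 1.13 and 0.950 in WTCKD + RNLS, 0.933, 1.07 and 0.983 in KOCKD and 0.917, 0.964 and 1.01 in KOCKD + RNLS. Every heart of WTCKD + RNLS, KOCKD and KOCKD + RNLS was above every WTCKD heart, and KOCKD + RNLS against WTCKD was not tested. The geometric mean of the ratio was 1.27-fold higher in WTCKD + RNLS than in WTCKD and 1.17-fold higher in KOCKD than in WTCKD, each with p = 0.1 in a two-sided exact permutation test, the smallest that 3 against 3 hearts allow, and adjusted p = 0.2 over 8 tests of ratios. Between KOCKD + RNLS and KOCKD the ratio was 0.970-fold (exact permutation p = 0.6), and between WTCKD and WTSHAM 1.10-fold (exact permutation p = 0.3). Pln (2480 bases) is shorter than Atp2a2 (5294 bases), so a length trend can enter this ratio. In KOCKD against WTCKD, length offsets moved Pln from 0.14 to 0.09 and Atp2a2 from -0.09 to -0.03 on the log2 scale. In WTCKD + RNLS against WTCKD, they moved Pln from 0.22 to 0.23 and Atp2a2 from -0.13 to -0.12.

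**Figure D4:**
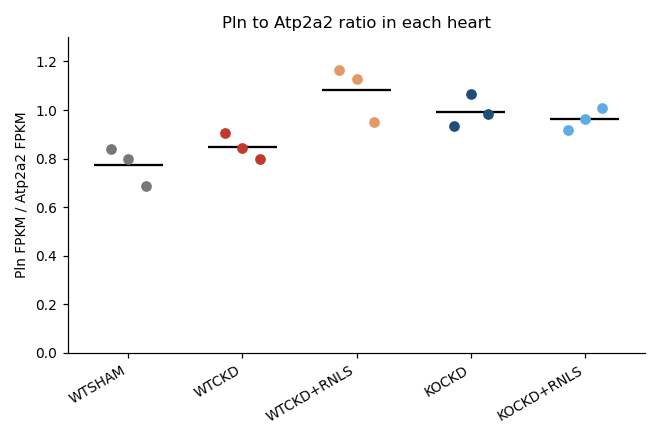
Ratio of Pln to Atp2a2 FPKM (vertical axis, from 0) in each heart, as points by group, with a bar at each group's mean. Group means are 0.774 in WTSHAM, 0.849 in WTCKD, 1.08 in WTCKD + RNLS, 0.994 in KOCKD and 0.964 in KOCKD + RNLS.

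The ratio of Slc8a1 to Atp2a2, an extrusion and a reuptake transcript, was 1.15-fold higher in WTCKD + RNLS than in WTCKD and 1.14-fold higher in KOCKD + RNLS than in KOCKD. The hearts did not overlap in either pair (exact permutation p = 0.1 each, adjusted p = 0.2). It was 1.04-fold in WTCKD against WTSHAM (exact permutation p = 0.7) and 0.911-fold in KOCKD against WTCKD (exact permutation p = 0.2). Slc8a1 is among the longest genes, so the length trend of the knockout comparison enters its ratio.

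Of 75 further calcium handling genes in 9 functional lists, 74 passed the filter on low counts (Slc8a3 did not). In KOCKD + RNLS against KOCKD, 14 rose and 8 fell, where 9.05% and 7.04% of all genes did. The largest rises were of the IP3 receptor genes Itpr2 (log2 change 0.72) and Itpr3 (0.54) and of the pump gene Atp2a3 (0.60), and the largest falls of Sln, Rcan1 (-0.85) and the calmodulin gene Calm2 (-0.42). Partners of the L-type pore rose as well, Cacna2d1 (0.45, adjusted p = 0.00196) and Cacnb2 (0.33, adjusted p = 0.0231), both named after their values were seen. With gene length offsets, 1 rose (Atp2a3) and 2 fell, among them Rcan1, with GENCODE M1 lengths in the offsets 4 rose and 5 fell, and without the libraries over 100 CPM of Myl7, 6 rose and 2 fell. Sarcolipin (Sln), an inhibitor of SERCA that is mainly atrial, followed the atrial markers, with 113, 3 and 1652 reads in KOCKD and 1, 0 and 1 reads in KOCKD + RNLS, and no fold is given for it. Leaving out any 1 of the 6 hearts gave 7 to 11 higher and 3 to 8 lower, the fewest without KOCKD + RNLS replicate 2.

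By role, the release unit and store lumen had 0 higher and 4 lower of 15 in that comparison, among them calreticulin (Calr), and mitochondrial calcium genes 0 higher and 2 lower of 10. Calcium channel subunits had 2 higher and 0 lower of 7, extrusion genes 2 higher and 0 lower of 4, and IP3 receptors and store-operated entry 2 higher and 0 lower of 6. Kinases, phosphatases and scaffolds had 6 higher and 1 lower of 18, T-tubule and junction genes 1 higher and 0 lower of 5, SERCA pumps and regulators 1 higher and 1 lower of 5, and sodium pump genes 0 of 4. The median log2 change over the 74 genes was -0.04, against -0.01 over all genes. These counts by role are without length offsets. With them the calls of Calr (-0.24), Calm2 (-0.17), Cacna2d1 (0.07), Cacnb2 (0.08), Atp2b1 (0.10) and Atp2b4 (0.26) were lost. With GENCODE M1 lengths Calr was called (-0.32) and the others named here were not.

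In WTCKD + RNLS against WTCKD, 4 of the 74 rose and 1 fell, where 2.19% and 2.28% of all genes did. Tcap, a titin-binding protein of the Z-disc and T-tubule (0.86, adjusted p = 0.0476), Cacnb2 (0.56, adjusted p = 0.00372), the kinase gene Camk2a (0.35, adjusted p = 0.0385) and the sodium pump subunit Atp1b1 (0.24, adjusted p = 0.0402) rose, and Rcan1 (-0.73, adjusted p = 0.00468) fell. In WTCKD against WTSHAM, the kinase anchor Akap7 rose (0.40, adjusted p = 0.0402), and 2 genes fell, among them Calr (-0.40, adjusted p = 0.0111), where 0.599% of all genes rose and 1.7% fell. Without the libraries over 100 CPM of Myl7, none was called in either comparison, and WTCKD then held 1 heart, which the fit takes to vary like the other groups. Leaving out 1 heart at a time gave 2 to 5 calls with renalase, where Tcap was lost each time and Rcan1 and Cacnb2 never, and 0 to 3 calls against WTSHAM, 0 of them without WTCKD replicate 1 or WTCKD replicate 3. In KOCKD against WTCKD edgeR and DESeq2 called 0 of the 74 (8 at an unadjusted p under 0.05 by edgeR), and in the difference of the renalase effects 0 (18 at an unadjusted p under 0.05), where DESeq2 called 4.

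Rcan1 encodes an inhibitor of calcineurin, the calcium-dependent phosphatase of hypertrophic signalling, and is itself a classical calcineurin target. It read 149, 143 and 122 CPM in WTCKD and 74.7, 93.4 and 81.1 CPM in WTCKD + RNLS. In knockout hearts it read 141, 146 and 100.1 CPM in KOCKD and 71.1, 69.1 and 75.3 CPM in KOCKD + RNLS, and WTSHAM hearts read 123, 131 and 126 CPM. All 6 hearts with renalase were below the 9 without it. The share of all genes with such a separation was not counted, and Rcan1 was named for being among the largest falls. Between vector and virus groups alone, 21.2% of all genes separated in either direction in wild type and 40.6% in knockout hearts. With gene length offsets Rcan1 fell in both genotypes (-0.72, adjusted p = 0.00337, in wild type and -0.76, adjusted p = 0.00417, in knockout). Without the libraries over 100 CPM of Myl7 it fell in knockout hearts, and in wild type its log2 change was -0.54 (adjusted p = 0.214).

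**Figure D5:**
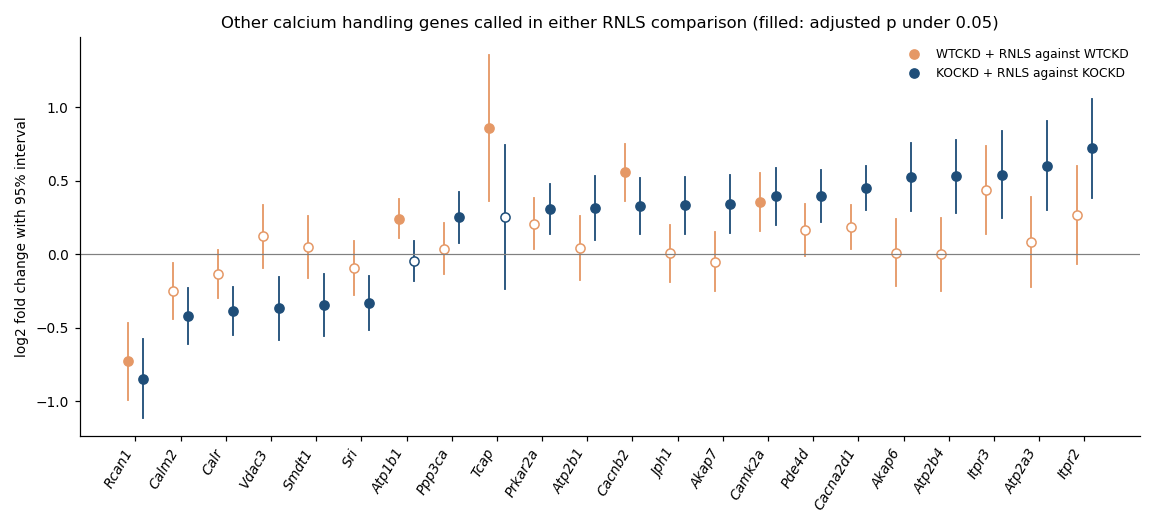
log2 fold change (vertical axis) with 95% intervals of 22 further calcium handling genes called in either renalase comparison, in wild-type (left, orange) and knockout (right, blue) hearts, with filled points at an adjusted p under 0.05. Sln is left out for its scale, 1 called gene is not shown, and Rcan1 is lower in both (-0.73 and -0.85).

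Over the 15 hearts, log2 CPM of Ryr2 correlated most with Slc8a1 (Pearson r = 0.68) and Cacna1c (0.61), Pln with Trdn (0.63), and Atp2a2 with Pln inversely (-0.70). These describe hearts that share groups and libraries, and Ryr2, Slc8a1 and Cacna1c also share great length. The genes outside the 10 whose pattern was most like the mean of the 10 standardized levels were Fam210a (r = 0.89 over 15 libraries), D2hgdh (0.86), Zfp438 (0.85), Garem1 (0.85) and Rrm2b (0.84).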

How the data were processed

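Reads of a stranded mRNA kit were trimmed with Trimmomatic, mapped with hisat2 to mm9 (the submitters' processing notes name GRCm39 instead) and counted per gene with htseq-count, and the authors deposited these counts without normalization. The authors also deposited FPKM, which are the counts over 1 constant length per gene and over the library total. Tool versions, annotation and strand setting were not given in the sources used here, nor which library ran on which of the 2 sequencers. Values were analysed with edgeR 4.0.16 (R 4.3.3), with TMM scaling, the default filter (minimum count 10, total 15), which kept 13021 genes, a quasi-likelihood fit of the group over 15 libraries, and Benjamini-Hochberg adjustment over all genes tested. Each library was 1 mouse and was taken as 1 replicate. Intervals are at 95%. Ratios were tested by exact permutation. The alternatives were RLE size factors, no filter, DESeq2 1.42.0, the compared groups alone, a replicate block, the fold and p rule of the study, each library left out, gene length offsets (a lowess trend of span 0.3 for each library) and an atrial covariate. Leaving out libraries with over 100 CPM of Myl7 and offsets from GENCODE M1 lengths (88.6% of genes tested) were added after seeing the data. Genes without a GENCODE M1 length kept the length behind FPKM in those offsets. The members and lists were chosen with earlier results of these data known. Of the further calcium genes, up to 3 of the largest rises and falls called in a comparison were named, except genes that are not reported here. The code was tested on simulated data.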

Additional observations from a re-analysis of the deposited data

How the results depend on the processing

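Most values kept their side of the threshold, and of 773 uncalled values 62 changed sign under an alternative. In WTCKD + RNLS against WTCKD, DESeq2, gene length offsets and offsets with GENCODE M1 lengths each called 1 of the 10 genes (Pln) in place of 0. In KOCKD + RNLS against KOCKD, the count of 2 became 1 with length offsets (Asph in place of Ryr2 and Cacna1c), 3 with GENCODE M1 lengths (Asph, Cacna1c and Camk2d) and 1 (Cacna1c) without the libraries over 100 CPM of Myl7. The log2 change of Ryr2 turned to -0.020 and -0.14 with the 2 kinds of length offsets, and that of Camk2d, 0.12 and uncalled, to -0.32. Leaving out each library gave 1 to 2 calls there and 1 to 3 across the 5 groups, where Ryr2 was lost without KOCKD replicate 2. The difference of the renalase effects had 1 call (Cacna1c) by DESeq2 and by the rule of the study, in place of 0. Across the 5 groups the offsets called 3 (Casq2, Asph and Pln) and, with GENCODE M1 lengths, 4 (Asph, Cacna1c, Pln and Camk2d).

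Same-numbered libraries correlated at -0.36 to 0.23 in their deviations from the group means. With 3 hearts a group, these values cannot show whether the numbers pair the mice. With the replicate number as a block, the counts of the 10 genes called were 0, 0, 2, 0 and 0 in the 5 comparisons and 2 across the groups. Over the 74 further calcium genes the block gave 1 call in place of 3 in WTCKD against WTSHAM, 3 in place of 5 in WTCKD + RNLS against WTCKD and 21 in place of 22 in knockout hearts. The block gave Ryr2 0.34 (adjusted p = 0.0187) and Cacna1c 0.62 (adjusted p = 0.00309) in knockout hearts. All calls of all genes in the knockout comparison went from 2095 to 704 with length offsets, to 897 with GENCODE M1 lengths and to 3115 in a fit of the 6 libraries alone. The cause of these changes was not tested. With 3 hearts a group, an exact permutation test cannot go below p = 0.1.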
